A study of Drosophila melanogaster with 8 samples.

Results

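The cuticle protein genes of Drosophila melanogaster were followed in eye-antennal imaginal discs, from which the eyes, antennae and head cuticle of the fly develop. Members were the probe sets whose single current gene symbol names a cuticle family: Cpr, Lcp, Twdl, Vajk, Acp65A, Ccp84A or Pcp. The rule took 110 probe sets out of 18769 without array controls, and these stand for 106 of the 11982 genes that have a probe set of their own. They were 67 Cpr, 24 Twdl, 8 Lcp, 6 Vajk, 3 Ccp84A, 1 Acp65A and 1 Pcp probe sets. The rule used no measured value, though earlier results of these data were known when the members were chosen. Every member matched the RefSeq gene table. A further 20 cuticle genes of that table, among them Lcp1 to Lcp4, had no probe set of their own and were not analysed here, and 6 probe sets that carry 2 symbols were kept apart.

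The eyeless driver ey-GAL4, active in the eye primordium, expressed UAS transgenes in all 4 genotypes, including the controls. The control genotype, called lacZ, had 2 UAS-lacZ responders and no other. The vg genotype carried UAS-vg, encoding the wing selector cofactor Vestigial, with UAS-lacZ. The simj genotype carried UAS-simj, whose product Simjang is the p66 protein of the chromatin remodeller NuRD, with UAS-lacZ, and the vg_simj genotype carried UAS-vg with UAS-simj. UAS-lacZ copies differ between the genotypes along with the other transgenes, so the effects of the 2 cannot be told apart. Wandering larvae of the last instar were dissected, and each genotype had 2 biological replicates of 100 disc pairs on 1 array each. The discs hold many cell types, and a change in the number of cells cannot be told apart from a change in RNA per cell.

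Insect cuticle is a layered extracellular matrix of chitin fibres and proteins that epidermal cells secrete at their apical face. Most Cpr, Lcp, Acp65A, Ccp84A and Pcp proteins carry the Rebers-Riddiford domain, which binds chitin, while Tweedle (Twdl) and Vajk proteins form separate families. Pulses of ecdysone order their synthesis by stage, so that larval, pupal and adult cuticles contain different sets, and disc epithelia begin to secrete pupal cuticle after puparium formation.

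Values are MAS5 signals, linear intensities that summarise each probe set on each array, scaled to the same trimmed mean on every array. Eye-antennal identity was checked with 9 measured marker genes, ey, toy, so, eya, dac, gl, ato, Dll and ss, all of which exceeded the array median on all 8 arrays. Their summed signal was 16432 and 16589 in lacZ, 15452 and 16419 in vg, 10849 and 10198 in simj, and 12703 and 15962 in vg_simj. Of these genes gl, which encodes a photoreceptor transcription factor, was called lower in simj (-1.28, adjusted p = 0.0130) and in vg_simj against lacZ (-1.50, adjusted p = 0.000975) and against vg (-1.40, adjusted p = 0.00508), and Dll was called higher in vg_simj (0.75, adjusted p = 0.0402). The vg signal was 28.7 ± 0.990 (SD, n = 2) in lacZ and 246 ± 17.6 in vg, and the simj signal was 603 ± 176 in lacZ and 1162 ± 140 in simj. Muscle, oenocyte and salivary gland markers differed widely between arrays, and their sums are given further below.

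Most cuticle probe sets did not exceed the median signal of their array. The number above the median was 46 and 45 of 110 on the lacZ arrays, 47 and 40 on the vg arrays, 52 and 52 on the simj arrays, and 46 and 40 on the vg_simj arrays, which is 36.4% to 47.3% of the members. On all arrays but the simj pair and vg replicate 1 the share stayed at 41.8% or less. Both simj arrays thus had more members above the median than any other array. Counted over the 8 arrays, 27 probe sets of 26 genes were above the median on all of them (24.5% of members, against 43.9% of all probe sets), 42 on 1 to 7 and 41 on none. Signals of different probe sets depend on their probes as well as on RNA, so levels are compared between arrays and not between genes.

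The families differed in how many members were seen. All 6 Vajk probe sets exceeded the median on at least 2 arrays, as did 37 of 67 Cpr, 5 of 8 Lcp, 7 of 24 Twdl and 1 of 3 Ccp84A probe sets and Pcp, a pupal cuticle gene that lies within an intron of another gene. Acp65Aa, an adult cuticle gene, exceeded it on 1 array and was not tested. Ccp84Ae, the tested Ccp84A gene, lay between 12 and 73.3 over the 8 arrays with overlapping groups in every comparison. In the 65A region, a run of neighbouring cuticle genes, 7 of 12 probe sets exceeded it on at least 2 arrays. The 57 members that did so, of 55 genes, were tested together with all 10172 such probe sets. They were 51.8% of the members, close to the 54.2% of all probe sets without controls that did so. The other 53 members exceeded the median on at most 1 array. The highest signal among them was that of Cpr47Eg, at 692 on simj replicate 1 and 9.6 to 37.7 on the other arrays.

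**Figure D1:**
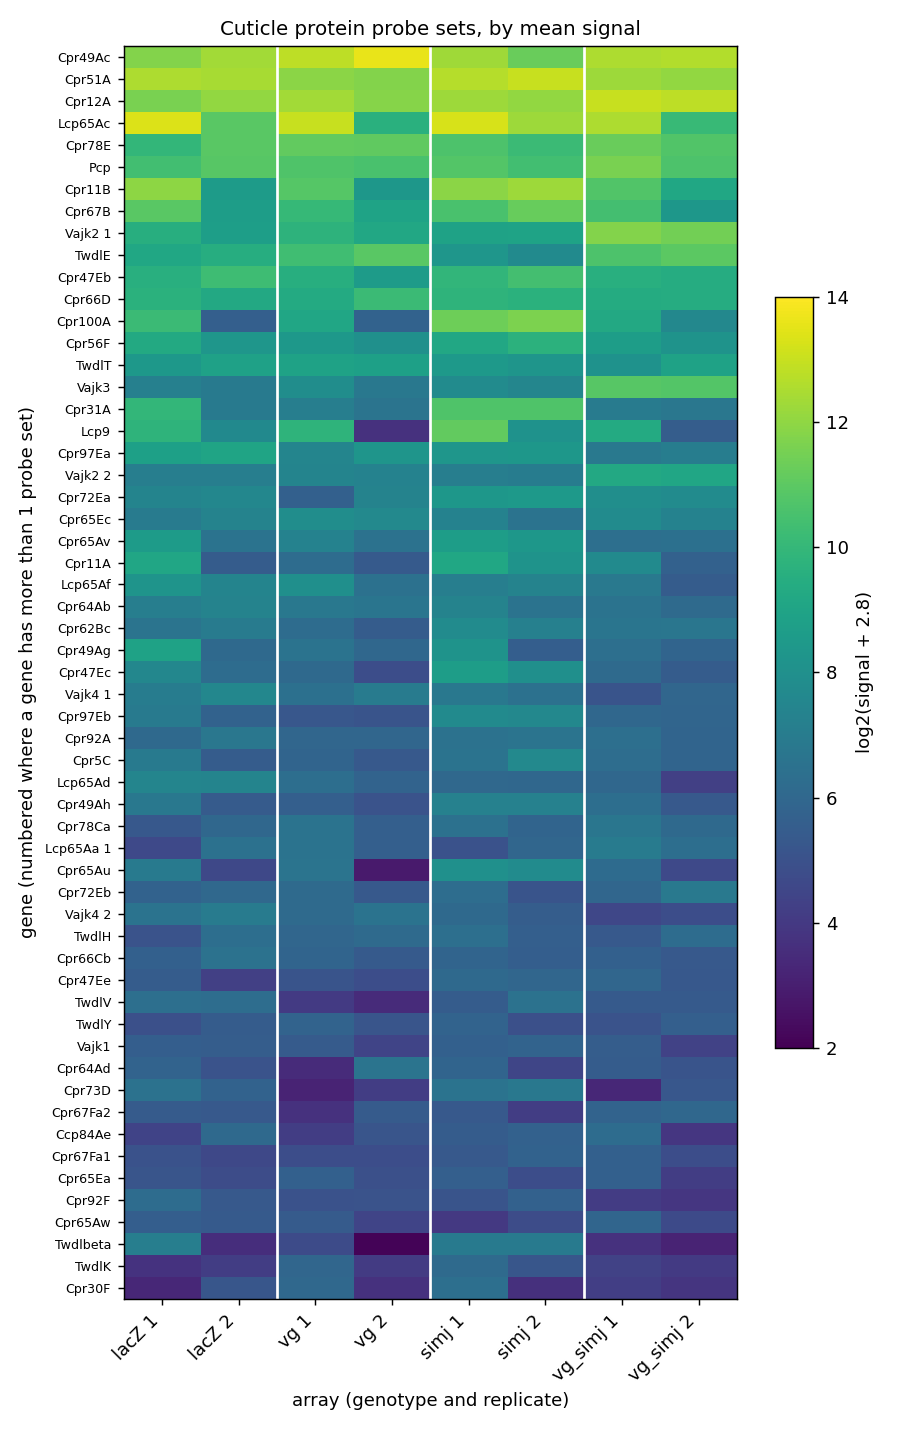
Log2(signal + 2.8) of the 57 tested cuticle probe sets (rows, ordered by mean) on the 8 arrays (columns, by genotype and replicate). Cpr49Ac, Cpr51A and Cpr12A are bright on every array, Vajk2 and Vajk3 are brightest on both vg_simj arrays, and Cpr100A, Cpr11B and Lcp65Ac differ strongly between arrays of 1 genotype.

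The 12 member genes with the highest mean signal were Cpr49Ac, Cpr51A, Cpr12A, Lcp65Ac, Cpr78E, Pcp, Cpr11B, Cpr67B, Vajk2, TwdlE, Cpr47Eb and Cpr66D. Cpr66D, Pcp and Cpr78E passed the test in no comparison. The Cpr66D signal was 805 and 608 in lacZ, 654 and 1175 in vg, 891 and 821 in simj and 664 and 685 in vg_simj. The Pcp signal was 1336 and 1892 in lacZ, 1637 and 1483 in vg, 1743 and 1337 in simj and 3024 and 1626 in vg_simj, and its groups overlapped in every comparison. Cpr78E, with both vg arrays above both lacZ arrays, had a log2 change of 0.65 ± 0.33 (SE) in vg and 0.57 ± 0.33 in vg_simj against lacZ, neither past the test (adjusted p = 0.569 and adjusted p = 0.483). Cpr49Ac read 3513 and 5196 in lacZ, 7117 and 12475 in vg, 4978 and 2442 in simj and 5933 and 6339 in vg_simj. Both vg arrays were the highest, but the change of 1.14 ± 0.37 with vg did not pass (adjusted p = 0.334). Cpr47Eb read 763 and 1242 in lacZ, 736 and 376 in vg, 951 and 1354 in simj and 765 and 676 in vg_simj, with a change of -0.88 ± 0.35 in vg (adjusted p = 0.440).

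Discs with both transgenes were first set against lacZ discs. The neighbouring genes Vajk2 and Vajk3 rose about 4- to 14-fold, the Tweedle gene TwdlE and the chitin-binding family gene Cpr12A rose, and Cpr97Ea and Vajk4 fell. Limma called 7 of the 57 tested cuticle probe sets at an adjusted p under 0.05, standing for 6 genes. This is 12.3% of them, where 3.34% of all tested probe sets were called. Of the 7, 5 were higher (1.04% of all tested) and 2 lower (2.3% of all tested). Both vg_simj arrays lay above both lacZ arrays for 9 of the 57 members, against 21.5% of all tested, and below for 14, against 20.9%. Of the 27 probe sets above the median on all arrays, 6 were called, a count without a reference, as the share over all such probe sets was not computed. The number called was 4 without lacZ replicate 1 and 4 without either vg_simj array, and Vajk2 and Vajk3 were among the called genes each time. Without lacZ replicate 2, Cpr31A and Cpr65Av were called in addition to them.

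The Vajk genes gave the clearest difference between genotypes. The brighter Vajk2 probe set had a signal of 731 and 414 in lacZ, 855 and 583 in vg, 485 and 492 in simj and 3479.6 and 2784 in vg_simj. The other Vajk2 probe set read 136 and 136, 169 and 158, 139 and 128, and 597 and 554 in the same order. Both vg_simj arrays stood above all other arrays for both probe sets, and the groups with 1 transgene lay close to lacZ. The log2 change against lacZ was 2.49 ± 0.29 (adjusted p = 0.00375) and 2.06 ± 0.17 (adjusted p = 0.00099), which is 5.63-fold and 4.16-fold. These 2 values come from the same gene and are not separate evidence.

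Vajk3, which lies next to Vajk2 in the reference gene order and is followed there by the Nimrod gene NimA, moved the same way. Its signal was 146 and 115 in lacZ, 233 and 109 in vg, 219 and 179 in simj, and 1907 and 1773 in vg_simj. The lowest vg_simj array was thus far above the highest other array, and the log2 change was 3.80 ± 0.33, or 13.9-fold (adjusted p = 0.00107). Vajk2 and Vajk3 kept their calls against lacZ under each alternative that kept the probe set and with each array left out.

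The other family members did not follow. Vajk1, the third gene of that run, read 45.7 and 44.1 in lacZ, 40.3 and 19.4 in vg, 47.7 and 54.5 in simj and 43.8 and 18.1 in vg_simj. Both vg_simj arrays lay below both lacZ arrays, 1 of them far below its array median of 38.4, and the log2 change was -0.61 ± 0.56 (adjusted p = 0.690). Vajk4, which lies elsewhere in the genome, went down. Its called probe set read 91.3 and 126 in lacZ, 67.2 and 91.9 in vg, 66.8 and 43.7 in simj and 20.8 and 25.8 in vg_simj, a log2 change of -2.08 ± 0.39 (adjusted p = 0.0295). Both vg_simj arrays were the lowest of the 8 and below the array median, so the size of the fall depends on the pseudocount and is -0.98 with a pseudocount of 64. A second Vajk4 probe set had 127 and 186 in lacZ and 31.9 and 58.6 in vg_simj and just missed the test (-1.76 ± 0.39, adjusted p = 0.0530). With the replicate number as a block it passed (adjusted p = 0.0313). The Vajk4 call was lost without either lacZ array, without either vg_simj array and without a filter.

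TwdlE, a member of the Tweedle family, was higher on every array with UAS-vg. Its signal was 556 and 714 in lacZ, 1293 and 1919 in vg, 317 and 209 in simj, and 1586 and 2017 in vg_simj. The lowest array with UAS-vg was above the highest without it, and both simj arrays were the lowest of all. The change was 1.5 ± 0.27 in vg_simj against lacZ (adjusted p = 0.0237), but 1.32 ± 0.27 in vg (adjusted p = 0.0948) and -1.28 ± 0.27 in simj (adjusted p = 0.149) did not pass. The call against lacZ was lost without either lacZ array, without either vg_simj array and without an intensity trend.

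Cpr12A read 3096 and 4289 in lacZ, 5241 and 3578 in vg, 4873 and 4299.7 in simj and 8140.5 and 7249.9 in vg_simj. Both vg_simj arrays were the highest, and the log2 change of 1.08 ± 0.22 against lacZ just passed (adjusted p = 0.0401), a call lost when any lacZ, simj or vg_simj array was left out, with quantile normalization and without an intensity trend. Cpr97Ea read 454 and 505 in lacZ, 174 and 300.3 in vg, 314 and 327 in simj and 113 and 133 in vg_simj. Every transgene array was below both lacZ arrays and the vg_simj arrays were the lowest, at -1.94 ± 0.26 or 3.85-fold below lacZ (adjusted p = 0.00708). Without lacZ replicate 2 its adjusted p was 0.0560, and without vg_simj replicate 1 it was 0.0615. Its neighbour Cpr97Eb differed, at -0.41 ± 0.41 (adjusted p = 0.712), with its highest 2 signals, 212 and 194, on the simj arrays, and without lacZ replicate 1 the change turned to 0.18. Lcp65Ad, a larval cuticle gene, had a change of -2.30 ± 0.54 (adjusted p = 0.0658), with 173 and 167 in lacZ and 77.2 or less on every other array. It was called with the replicate number as a block (adjusted p = 0.0370), without vg_simj replicate 1 and with a pseudocount of 64.

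**Figure D2:**
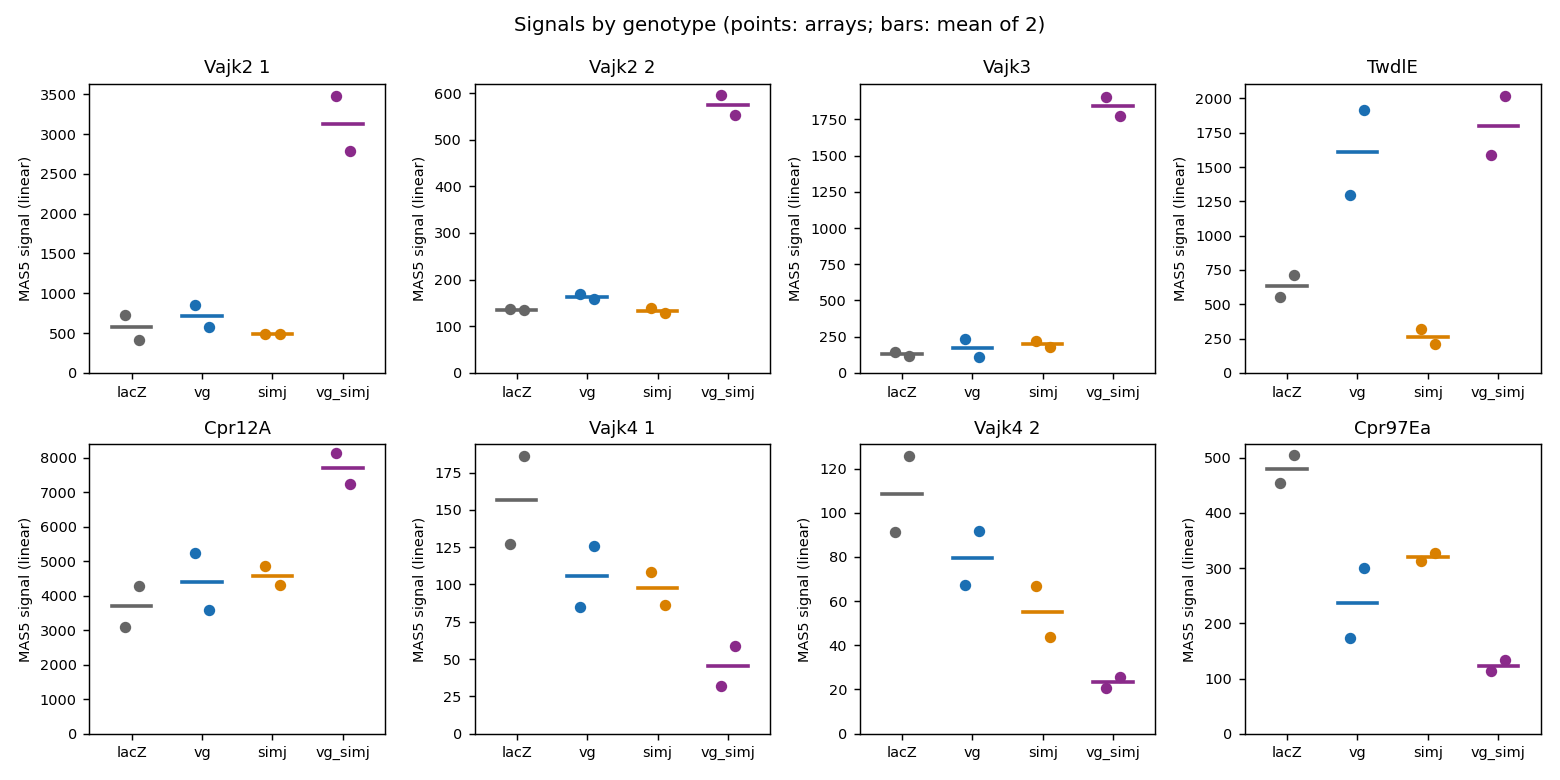
MAS5 signal (linear axis from 0) of the 6 genes called in vg_simj against lacZ, with both probe sets of Vajk2 and of Vajk4 (Vajk4 1 was not called). Points are arrays and bars are means of 2; both vg_simj points stand above all others for Vajk2, Vajk3 and Cpr12A and below all others for Vajk4 and Cpr97Ea.

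The vg_simj discs were then set against each single transgene, which asks what the second transgene added. The vg signal itself also read higher in vg_simj than in vg (417 against 246), though not past the test (0.75, adjusted p = 0.375). Against vg, 3 of 57 probe sets were called, all higher (5.26%, against 0.924% of all tested in either direction and 0.157% called higher): both of Vajk2 (2.14 ± 0.29, adjusted p = 0.0168, and 1.80 ± 0.17, adjusted p = 0.00508) and Vajk3 (3.502 ± 0.33, adjusted p = 0.00508). Without vg_simj replicate 1 none of the 3 was called, without vg_simj replicate 2 only the dimmer Vajk2 probe set was, and without vg replicate 2 only Vajk3 of the 3 was, with Cpr72Ea called in addition (2.18, adjusted p = 0.0448). Both arrays of vg_simj lay above both of vg for 11 members, against 18.9% of all tested, and below for 7, against 17.5%. Against simj, 4 were called, all higher (7.02%, against 1.32% in either direction and 0.334% called higher). These were the 2 Vajk2 probe sets (2.66 ± 0.29, adjusted p = 0.00671, and 2.08 ± 0.17, adjusted p = 0.00161), Vajk3 (3.19 ± 0.33, adjusted p = 0.00582) and TwdlE (2.78 ± 0.27, adjusted p = 0.00394). TwdlE stayed past the threshold in all 16 alternatives, its smallest change being 2.49. The number called against simj was 7 without either lacZ array, 7 with the replicate number as a block, and 2 without simj replicate 2 or vg_simj replicate 1. Vajk3 was not called against simj without either vg_simj array or simj replicate 2.

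The interaction compares the effect of vg in simj discs with its effect in discs without simj. It was 2.90 ± 0.47 on the log2 scale for Vajk3 (adjusted p = 0.410), 1.82 ± 0.25 for the dimmer Vajk2 probe set (adjusted p = 0.146) and 2.31 ± 0.40 for the other (adjusted p = 0.520). TwdlE had an interaction of 1.47 ± 0.38 (adjusted p = 0.911). Limma thus called none of the 57 (0.0492% of all tested were called), and 6 had an unadjusted p under 0.05, which is 10.5% against 3.97% of all tested. A response beyond the sum of the single ones was therefore not established for these genes, although vg alone gave Vajk3 0.30 ± 0.33, or -0.24 without vg replicate 1, and simj alone gave it 0.61 ± 0.33. The interaction of Vajk3 was called without vg replicate 1, and that of Cpr31A without lacZ replicate 1.

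**Figure D3:**
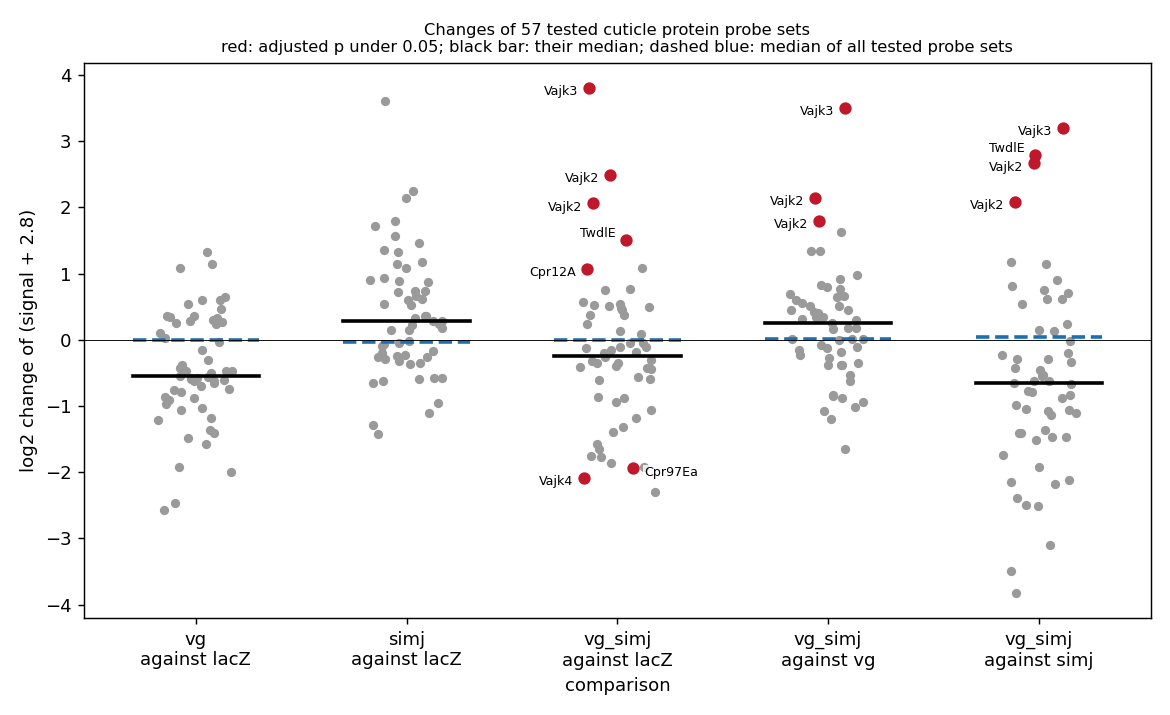
Log2 change of each of the 57 tested cuticle probe sets (points) in 5 comparisons, with called probe sets in red and named. The black bar is their median and the dashed line the median of all 10172 tested probe sets; the cuticle median is -0.66 in vg_simj against simj and 0.28 in simj against lacZ.

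With vg alone, limma called none of the 57 members (0.767% of all tested were called). At an unadjusted p under 0.05 there were 11, 2 higher and 9 lower, which is 19.3% against 10.1% of all tested. The smallest p values belonged to the Tweedle genes TwdlV and TwdlE and to Cpr51A and Cpr97Ea. The TwdlV signal was 81.8 and 74.2 in lacZ, 13.9 and 8.3 in vg, 42.6 and 90.0 in simj and 38.8 and 39.5 in vg_simj, so that both vg arrays were the lowest (-2.57 ± 0.50, adjusted p = 0.0820). Cpr51A had 5861 and 5431 in lacZ, 3837 and 3492 in vg, 6433 and 8078 in simj and 4864 and 4259.5 in vg_simj. Its 4 groups did not overlap in any pair, yet its change with vg of -0.62 ± 0.14 did not pass (adjusted p = 0.134). The change of Cpr97Ea with vg was -1.06 ± 0.26 (adjusted p = 0.163). Without vg replicate 2, Cpr72Ea was called in vg against lacZ. Both vg arrays lay below both lacZ arrays for 15 members, against 19.4% of all tested, and above for 5, against 20.0%. Over the 57 members the median change was -0.55, against -0.004 over all tested probe sets. Over the 27 that were above the median on all arrays it was -0.475.

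With simj alone, limma again called none of the 57 (0.413% of all tested), and 8 had an unadjusted p under 0.05, 5 higher and 3 lower, which is 14% against 8.18%. Both simj arrays lay above both lacZ arrays for 17 members, against 16.0% of all tested, and below for 7, against 24.1%. The median change of the 57 was 0.28, against -0.04 over all tested. The 4 smallest p values were those of TwdlE, described above, Cpr97Eb (1.32 ± 0.41, adjusted p = 0.380), Cpr31A (2.24 ± 0.79, adjusted p = 0.490) and Lcp65Ad (-1.42 ± 0.54, adjusted p = 0.528). Cpr31A read 999 and 119 in lacZ, 135 and 95.8 in vg, 1665 and 1634 in simj and 123 and 106 in vg_simj. It was high on both simj arrays and on 1 lacZ array, and between 95.8 and 135 on the other 5. Without lacZ replicate 1 it was called in simj against lacZ, and without lacZ replicate 2 it was called in vg against lacZ.

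Many other members also stood highest on the simj arrays. For 12 of the 57 (21.1%) both simj arrays lay above the other 6 arrays, where 6.82% of all tested probe sets did. Among the 27 above the median on all arrays it was 5, with 6.16% over all such probe sets. They were Cpr100A, Cpr31A, Cpr47Ec, Cpr47Ee, Cpr49Ah, Cpr51A, Cpr62Bc, Cpr65Au, Cpr72Ea, Cpr73D, Cpr97Eb and Vajk1, genes outside the naming rule being listed after their values were seen. TwdlE was the one member whose simj arrays were both the lowest (8.16% of all tested). The vg_simj arrays were both the highest for 5 members (7.06% of all tested) and both the lowest for 6 (5.74%). The vg arrays were both the highest for 1 (4.47%) and both the lowest for 5 (4.76%). The lacZ arrays were both the highest for 3 (4.19%) and both the lowest for 0 (3.42%). A member can have passed the filter through its simj arrays alone, so the count over the 57 favours groups with high values.

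The same contrast showed from the side of vg_simj. For 30 of the 57 members both vg_simj arrays lay below both simj arrays, against 22.2% of all tested, and for 10 they lay above, against 27.2%. Among the 27 always above the median the counts were 15 lower and 8 higher, with 20.3% and 29.9% over all such probe sets. The median change was -0.66 over the 57 members and -0.63 over the 27, against 0.05 and 0.06 over all. None of the lower members passed the test, although Cpr31A, Cpr47Ec and Cpr97Ea did so with the replicate number as a block, and Cpr31A, Cpr65Av and Cpr97Eb without either lacZ array. Cpr97Ea was also called without either vg array. The smallest p among them belonged to Cpr97Ea (-1.37 ± 0.26, adjusted p = 0.0567) and Cpr31A (-3.82 ± 0.79, adjusted p = 0.0755). Cpr51A followed (-0.66 ± 0.14, adjusted p = 0.0828), and then Cpr47Ec (-2.52 ± 0.57, adjusted p = 0.0939), with 410 and 251 in simj and 68.0 and 42.4 in vg_simj.

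Several of these genes also differed strongly between the 2 arrays of 1 genotype. Lcp65Ac, a larval cuticle gene of the 65A region, read 10653 and 1967 in lacZ, 8114 and 770.6 in vg, 9971 and 4899.6 in simj and 5866 and 1086 in vg_simj. Cpr11B read 3999.7 and 383 in lacZ, 1803 and 325 in vg, 3869 and 4812.5 in simj and 1685 and 557 in vg_simj. Cpr100A read 1159 and 46.3 in lacZ, 538.5 and 52.1 in vg, 2648 and 3196.5 in simj and 601 and 189 in vg_simj. In each of the 3, the first array of lacZ, vg and vg_simj was high and the second low, while simj was high on both arrays. Lcp65Ac still split in simj, where replicate 1 was 2.04-fold above replicate 2. None of them passed in any comparison, and the simj change of Cpr100A was 3.61 ± 1.49 (adjusted p = 0.582).

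The split reached further members. In lacZ, 17 of the 57 (29.8%) were over 2-fold higher on replicate 1 than on replicate 2, where 4.98% of all tested probe sets were. The counts were 14 in vg (24.6%, against 6.16%), 9 in simj (15.8%, against 3.65%) and 14 in vg_simj (24.6%, against 4.93%). In the other direction they were 4 in lacZ (against 3.31%), 5 in vg (against 3.21%), 3 in simj (against 2.41%) and 1 in vg_simj (against 3.40%). Lcp65Ac, Cpr11B, Cpr67B, Cpr100A, Lcp9 and Cpr65Au were over 2-fold higher on replicate 1 in lacZ, vg and vg_simj alike, 6 of 57 or 10.5%, against 1.05% of all tested. Of these 6, 2 were over 2-fold higher on replicate 1 in simj as well, Lcp65Ac at 2.04-fold and Lcp9 at 8.01-fold. For all 6, both simj arrays lay above the second arrays of the other 3 genotypes. The 6 were picked for low second arrays there, which favours this count. The share over all probe sets with that split was not computed, so nothing is drawn from it. In lacZ, vg and vg_simj the smallest ratio among the 6 was 2.07, for Cpr67B in vg. The largest was 85.6, for Lcp9 in vg, where the second array read 10.4.

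**Figure D4:**
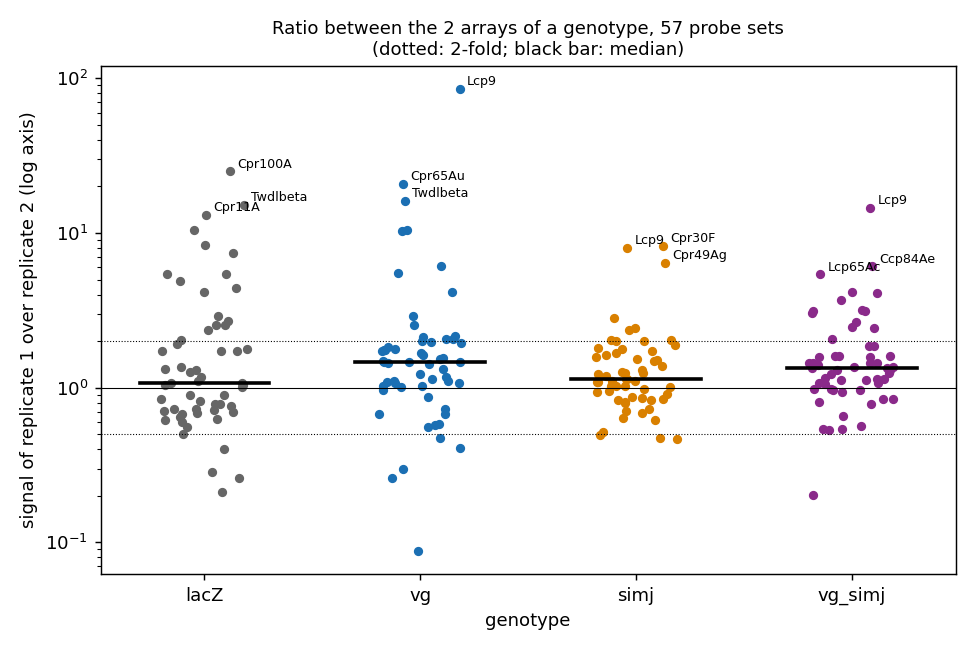
Signal of replicate 1 over replicate 2 (log axis) for the 57 tested cuticle probe sets in each genotype, with medians as black bars and 2-fold as dotted lines. Points reach 25.0 for Cpr100A in lacZ and 85.6 for Lcp9 in vg, while in simj the highest is Cpr30F at 8.30.

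Markers of other tissues moved with some of these arrays. The 3 measured muscle genes of 5 listed, Mlc2, up and bt, had a summed signal of 16759 and 6634 in lacZ, 8001 and 3375 in vg, 15713 and 18811 in simj and 7786 and 7341 in vg_simj. The muscle sum was thus high on lacZ replicate 1 and both simj arrays, and did not split the vg_simj arrays. The 3 oenocyte genes summed to 132 and 122 in lacZ, 30.4 and 35.7 in vg, 1010 and 1200.2 in simj, and 48.6 and 74.8 in vg_simj. Of these, FASN2 exceeded the median on no array and Cyp4g1 did so on the simj arrays alone. Cyp4g1 was called higher in simj (6.44, adjusted p = 0.0394) and lower in vg_simj against simj (-5.20, adjusted p = 0.0392). It passed the filter through its simj arrays alone, which favours these calls. Its signal was 1.1 and 18.5 in lacZ and 11.6 and 29.6 in vg_simj, so the sizes of both changes depend on the pseudocount. FASN3 was called lower in vg (-2.19, adjusted p = 0.0253), in vg_simj against lacZ (-1.57, adjusted p = 0.0354). Its fall from simj to vg_simj was also called (-3.00, adjusted p = 0.00555). The part of these tissues in the levels of the cuticle genes was not tested. The 6 haemocyte genes summed to 4655 and 5648 in lacZ, 1395 and 750.3 in vg, 5969 and 8841 in simj, and 2877 and 2046 in vg_simj, so that this sum too was highest on the simj arrays and lowest on the vg arrays. Of these genes Hml (-2.37, adjusted p = 0.0237) and PPO2 (-2.93, adjusted p = 0.0293) were called lower in vg, and Hml was called lower in vg_simj against simj (-2.36, adjusted p = 0.0178). PPO1, Pxn and He were lower in both comparisons without passing the test. NimC1 did not follow the sum. Its log2 change was 0.14 for vg against lacZ (adjusted p = 0.934) and 0.58 for vg_simj against simj (adjusted p = 0.383). The part of haemocytes in the cuticle gene levels was not tested.

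The salivary gland sum was 144 and 186 in lacZ, 5725 and 814 in vg, 2592 and 2717 in simj, and 14751 and 1758 in vg_simj. Its 9 genes did not move together, and 8 and 3 of them exceeded the median on the simj arrays. In simj each Sgs gene was higher on replicate 1 and each ng gene on replicate 2, and in vg the reverse held. Sgs7, for example, read 986 and 28.5 in simj, where ng3 read 372 and 1391. The vg_simj arrays differed widely in the sum. The same 2 arrays were within 1.25-fold of each other for Vajk2 and Vajk3. The ring gland sum, over 4 measured genes of 5, was 15173 and 20679 in lacZ, 4637 and 4942.5 in vg, 19395 and 26201 in simj, and 2458 and 1876 in vg_simj. It was low on the vg-carrying arrays, on which TwdlE was high, and its 4 genes, sad, nvd, dib and spok, were each called lower in vg, in vg_simj against lacZ and in vg_simj against simj. The 4 measured tracheal genes of 5 had sums between 4395 and 7167 over the 8 arrays, and the 3 measured fat body genes of 5 between 213 and 763.5. The tracheal sum is mostly serp and verm, which also stand in the list of chitin organisation genes used below. The dimmer btl and Osi9 had means of 92.1 and 72.15 in lacZ and 66.9 and 26.7 in vg_simj. None of the 4 tracheal genes was called in that comparison. The part of these tissues in the Vajk and TwdlE results was not tested either.

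**Figure D5:**
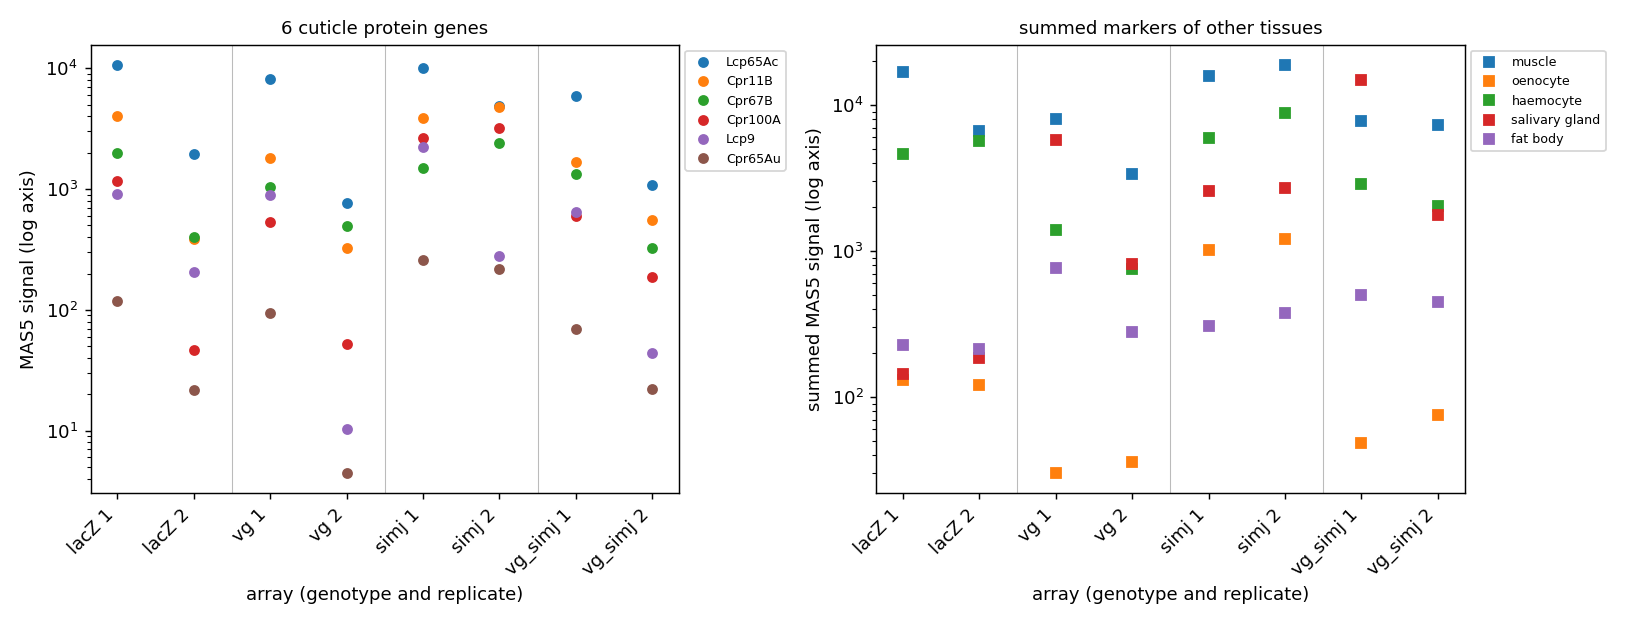
Left, MAS5 signal (log axis) of the 6 cuticle genes that were over 2-fold higher on replicate 1 in lacZ, vg and vg_simj; right, summed signal (log axis) of fixed marker lists on the same arrays. The muscle sum is high on lacZ replicate 1 and both simj arrays, and the oenocyte sum on both simj arrays.

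Genes that build, remodel, tan or regulate cuticle were taken from 6 lists with 57 tested genes. Of these 1 was called in vg and in vg_simj against lacZ, which is 1.75%, against 0.767% and 3.34% of all tested probe sets, and 0 in the other comparisons, where 0.413%, 0.924%, 1.32% and 0.0492% of all tested were called. Of 6 tested chitin synthesis genes, none was called in any comparison. The smallest p in vg_simj against lacZ belonged to Gfat1 (0.15, adjusted p = 0.627) and Gfat2 (-0.07, adjusted p = 0.876), which encode the first enzyme of the hexosamine pathway, and the chitin synthase gene kkv read 3897 and 3317 in lacZ and 3338 and 3916 in vg_simj. None of 15 tested genes of chitin organisation was called. The smallest p in vg_simj against lacZ was that of Idgf1, an imaginal disc growth factor gene related to chitinases (1.10, adjusted p = 0.0932), and then of the chitin deacetylase gene serp (-0.48, adjusted p = 0.113). The obst-A and Gasp genes, which encode chitin-binding matrix proteins, lay between 7973 and 10960.0 and between 15175 and 17793 over the 8 arrays. None of 8 tested chitinase genes was called, with Cht7 at -0.98 (adjusted p = 0.303) and Cht6 at -0.25 (adjusted p = 0.814). None of 9 apical matrix genes was called, with tyn at -1.17 (adjusted p = 0.169) and fw at -0.32 (adjusted p = 0.230).

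Of 9 tested tanning and pigment genes 1 was called. Pu, which encodes the GTP cyclohydrolase that makes the cofactor of tyrosine hydroxylase, read 1378 and 1473 in lacZ, 659 and 482 in vg, 1247 and 1337 in simj and 718 and 551 in vg_simj. All 4 arrays with UAS-vg were below the 4 without it, and Pu fell by 1.33 in vg (adjusted p = 0.0256) and by 1.18 in vg_simj (adjusted p = 0.0158) on the log2 scale. The tyrosine hydroxylase gene ple exceeded the median on no array, and the pigment gene y stood at 1.56 in vg_simj (adjusted p = 0.140). Of 10 tested regulators of the ecdysone cascade and of cuticle none was called in any comparison, with EcR, a subunit of the ecdysone receptor, at 0.68 in vg_simj (adjusted p = 0.190) and Eip93F at -1.22 (adjusted p = 0.592). The early ecdysone gene br lay between 7003.5 and 11230 over the 8 arrays.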

How the data were processed

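RNA of 8 eye-antennal disc samples was measured on Affymetrix arrays. The authors deposited MAS5 signals, per the submitters' processing notes, which are intensities on a linear scale. The mean of each array, trimmed by 2% at both ends, was 500, as a single scaling factor per array gives. No detection calls entered this work, so the dim members may hold background alone. Precision is limited by having 2 arrays a group.

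The platform annotation gave 1 symbol to 13647 of 18952 probe sets, and 13544 of these matched the RefSeq table. The 183 control probe sets were left out. A probe set was kept where 2 or more of the 8 arrays read above their own median. The whole symbol Pcp was admitted. Signals were put on the log2(signal + 2.8) scale, where 2.8 is the 10th percentile of all signals; this understates the fold of dim genes. With limma 3.58.1 (R 4.3.3), 1 mean per genotype was estimated from all 8 arrays (eBayes with an intensity trend, 4 residual and 3.82 prior degrees of freedom), two-sided, with Benjamini-Hochberg adjustment over 10172 probe sets in each of 6 contrasts. An exact permutation test of 2 against 2 cannot go below p = 0.333, so tests rest on spread shared across probe sets. In 10 simulations for vg_simj against lacZ with 200 of 10172 probe sets changed, 85.7% of log2 changes of 1.5 and 96.4% of those of 3 were recovered, and 5.8% of calls were false. The changed probe sets were drawn from bright ones alone, and the simulated arrays varied independently of each other. These rates therefore do not carry over to dim members or to members that split between replicates.

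The members and gene lists were chosen with earlier results of these data known. Named members were those called, the 4 with the smallest p in each contrast, the 12 genes with the highest mean, the highest of each family and all Vajk, Acp65A and Pcp genes. From lists of cuticle-related genes, called genes and the 2 with the smallest p in vg_simj against lacZ were named. Marker lists of other tissues are given by their sums and called genes. Other genes were chosen after their values were seen. Alternatives were other pseudocounts, filters and normalizations, no intensity trend, the replicate number as a block, and each array left out. For arrays left out, the same probe sets were kept, and a lone array was assumed to vary like the other groups.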

Additional observations from a re-analysis of the deposited data

Results flagged for a closer look

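Of the 6 probe sets that carry 2 gene symbols and were kept out of the members, 2 had both simj arrays above both lacZ arrays. Of all tested probe sets, 16.0% did so. The probe set shared by the neighbouring genes Ccp84Aa and Ccp84Ab read 596 and 104.5 in lacZ, 140.0 and 86.6 in vg, 1308 and 1319 in simj (mean 1313) and 117 and 104 in vg_simj. The probe set shared by Lcp65Ag1 and Lcp65Ag2 read 227 and 66.1 in lacZ, 165 and 43.5 in vg, 352 and 361 in simj (mean 356) and 108 and 43.1 in vg_simj. Which gene of each pair gave the signal cannot be told. With 2 arrays per group, single arrays could not be checked as outliers, and no interaction of a member passed the test.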

How the results depend on the processing

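With all arrays kept, the call counts of the 57 members moved by over 1.5 times under the 75th percentile filter and the replicate block. They also moved by over 1.5 times without several of the single arrays, so the counts depend on the arrays used. In vg_simj against lacZ, where 7 were called, the number was 4 under the filter at the 75th percentile, which keeps fewer probe sets. In vg_simj against simj, where 4 were called, it was 7 with the replicate number as a block. With each array left out in turn the number called ranged from 0 to 1 in vg and in simj against lacZ, from 4 to 7 in vg_simj against lacZ, from 0 to 3 in vg_simj against vg, from 2 to 7 in vg_simj against simj and from 0 to 1 for the interaction. The number of members above the 75th percentile, in place of the median, was 15 and 9 on the lacZ arrays, 13 and 9 on the vg arrays, 16 and 13 on the simj arrays and 16 and 11 on the vg_simj arrays. Over all 57 tested members, 6 contrasts and 16 alternatives, calls were lost in 34 combinations and gained in 23, of which 20 and 6 in vg_simj against lacZ and 6 and 11 in vg_simj against simj. Among 50 changes of named members recomputed under each setting, 2 turned direction, neither of them called: Vajk3 in vg against lacZ ranged from -0.24 without vg replicate 1 to 0.84 without vg replicate 2, and Cpr97Eb in vg_simj against lacZ from -1.01 without lacZ replicate 2 to 0.18 without lacZ replicate 1. Nothing in the labels says that a replicate number marks a shared batch. Deviations of same-numbered arrays correlated over 10172 probe sets at 0.34 between lacZ and vg, 0.25 between lacZ and vg_simj, 0.41 between vg and vg_simj, 0.14 between simj and vg_simj, 0.07 between vg and simj and 0.06 between lacZ and simj, so not all pairs exceeded 0.1. Over the 57 members the first 3 of these were 0.45, 0.41 and 0.60, a description over genes that share arrays. The block changed no other count by over 1.5 times. Signals near the array median limit what can be seen of 53 members that were not tested.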
